A study of Homo sapiens with 12 samples.

Results

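Transcript levels of 31 genes of cholesterol and fatty acid synthesis were examined by RNA-seq in HUDEP-2 cells, an immortalised line of human erythroid precursors derived from umbilical cord blood. The genes were listed by pathway and matched by symbol to the 54628 genes of the count table. The rule set no threshold on their values, although the list was drawn up with earlier results of these data known. All 31 were present and all 31 passed the filter on low counts, which left 15492 genes for testing. By role, 7 genes belong to the mevalonate arm, 12 convert its product through squalene to cholesterol, 5 sense, regulate or carry sterols, and 7 make, lengthen or desaturate fatty acids.

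The 12 libraries fell into 4 groups of 3. Cells carried a scrambled guide (sgControl) or one directing CRISPR interference at a regulatory element of the EGR1 locus (sgEGR1). They received PBS or stem cell factor (SCF), which binds the receptor tyrosine kinase Kit. Guides were delivered by lentivirus together with dCas9 fused to the KRAB repressor and GFP, and each group was a GFP-sorted pool of infected cells rather than a clone. All cells had been expanded with SCF, erythropoietin, dexamethasone and doxycycline. They were then starved for 5 h in a medium with albumin, for which the paper's methods list none of these additives. After that they received 1 h with PBS or with 50 ng/mL SCF.

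Cholesterol is built from acetyl-CoA by way of mevalonate, squalene and lanosterol, and fatty acids are built from the same precursor by carboxylation and repeated condensation. Most of these enzymes are targets of the sterol regulatory element-binding proteins (SREBPs, encoded by SREBF1 and SREBF2), which are held in the endoplasmic reticulum by SCAP and INSIG proteins when sterols are plentiful and are cut free when sterols fall. Red cells lose their organelles and with them this synthesis, so that the lipid of the mature membrane is laid down in precursors or taken up from plasma.

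In the comparisons below STARD4 and EBP changed with SCF, and HMGCS1 changed once replicate 1 was modelled. SREBF2 encodes the main activator of the pathway and did not pass the test in any comparison. The promoters of these 4 genes are shown. Each is the stretch of 250 bases before the start site in RefSeq (GRCh38.p14), read 5′ to 3′ along the gene. For STARD4, EBP and HMGCS1 the GENCODE gene model begins inside the stretch. Capitals mark CCAAT or its reverse complement ATTGG, the box bound by NF-Y, a partner of the SREBPs. In STARD4 and SREBF2 they also mark GCGTGGG on either strand, letters of the kind that EGR factors bind, and in SREBF2 the sterol regulatory letters TCACNCCAC, which overlap the GCGTGGG match there.
STARD4, chr5:111512536-111512785, minus strand: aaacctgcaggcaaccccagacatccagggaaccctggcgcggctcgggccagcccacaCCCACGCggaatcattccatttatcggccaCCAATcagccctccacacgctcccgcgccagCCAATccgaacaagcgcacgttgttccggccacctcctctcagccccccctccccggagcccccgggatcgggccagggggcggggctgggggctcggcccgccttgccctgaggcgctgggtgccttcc
EBP, chrX:48521558-48521807, plus strand: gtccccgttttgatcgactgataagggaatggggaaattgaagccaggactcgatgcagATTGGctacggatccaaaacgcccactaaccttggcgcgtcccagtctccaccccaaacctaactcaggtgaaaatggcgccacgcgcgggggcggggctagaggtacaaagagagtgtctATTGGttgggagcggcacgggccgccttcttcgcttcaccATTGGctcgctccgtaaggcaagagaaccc
HMGCS1, chr5:43313413-43313662, minus strand: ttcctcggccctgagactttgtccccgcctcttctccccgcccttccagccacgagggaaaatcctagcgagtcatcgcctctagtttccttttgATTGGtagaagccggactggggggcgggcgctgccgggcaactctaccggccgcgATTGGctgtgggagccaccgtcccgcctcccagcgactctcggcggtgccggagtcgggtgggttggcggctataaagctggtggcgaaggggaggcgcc
SREBF2, chr22:41832855-41833104, plus strand: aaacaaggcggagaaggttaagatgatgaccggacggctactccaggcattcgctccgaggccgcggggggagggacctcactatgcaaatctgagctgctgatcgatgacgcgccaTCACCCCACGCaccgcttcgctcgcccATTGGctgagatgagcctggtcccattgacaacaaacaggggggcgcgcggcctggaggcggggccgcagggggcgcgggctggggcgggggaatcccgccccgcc

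The RefSeq table held a start site window for 27 of the 31 genes, each with 250 bases before and 50 after the start. The windows of ACAT2, FDFT1, SQLE and FASN were missing. CCAAT stood on either strand in 17 of the 27 windows (63.0%), against 35.7% of all 27305 windows. TCACNCCAC stood in 1 (3.70%, SREBF2), against 1.15% of all windows, and GCGTGGG in 4 (14.8%: CYP51A1, LSS, SREBF2 and STARD4), against 6.74%. PMVK and FADS1 also changed once replicate 1 was modelled, and their windows, not shown, held none of these sets of letters. A match describes the letters of a window and not a bound site. Only these exact letters were searched, so a window without a match may still hold a site spelled otherwise.

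Libraries held 23.5 to 32.04 megacounts, and the 31 genes took 0.389% to 0.415% of them. Levels are given as CPM, counts per megacount after TMM scaling. The 9 erythroid markers reported were at 216 CPM (NFE2) or above in every library, while 10 of the 15 markers of T cells, B cells, myeloid cells, megakaryocytes, hepatocytes and adipocytes were at a count of 0 throughout, which allows up to 3 counts a library. The other 5 did not exceed 14 counts. EGR1 itself was at 10.9, 5.99 and 7.45 CPM in sgControl PBS, 208, 239 and 171 in sgControl SCF, 2.04, 1.12 and 0.977 in sgEGR1 PBS and 40.4, 57.4 and 204 in sgEGR1 SCF. The library labelled sgEGR1 SCF replicate 3 therefore went against its label, with an EGR1 level inside the range of sgControl SCF. Replicate 1 of every group also stood apart, so a fit with a term for replicate 1 is given beside the results it changes.

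Few of the 31 genes were called for 1 h of SCF, at shares not clearly apart from those of all genes. In sgControl cells edgeR's quasi-likelihood test with Benjamini-Hochberg adjustment over all genes called 1 of the 31 (STARD4, higher) at an adjusted p under 0.05, while 2.89% of all genes were called. In sgEGR1 cells it called 0 of the 31, against 2.59% of all genes. DESeq2 called 1 there (EBP, higher), against 6.35% of the genes to which it gave an adjusted p. An unadjusted p under 0.05 in edgeR was reached by 5 of the 31, against 15.0% of all genes. Averaged over both guides, 2 of the 31 were called (STARD4 and EBP, both higher), against 9.03% of all genes. The median log2 fold change of the 31 genes in that average was 0.016, with 18 above and 13 below 0, and the median of all genes was -0.0045. The median absolute log2 fold change was 0.070 for the 31 genes and 0.105 for all genes. This measure grows with counting noise and the sets were not matched for level, so it does not show a weaker response. When the library labelled sgEGR1 SCF replicate 3 was left out, the counts called stayed at 1, 0 and 2. In bulk RNA a change in the number of cells of a kind and a change in RNA per cell cannot be told apart.

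**Figure D1:**
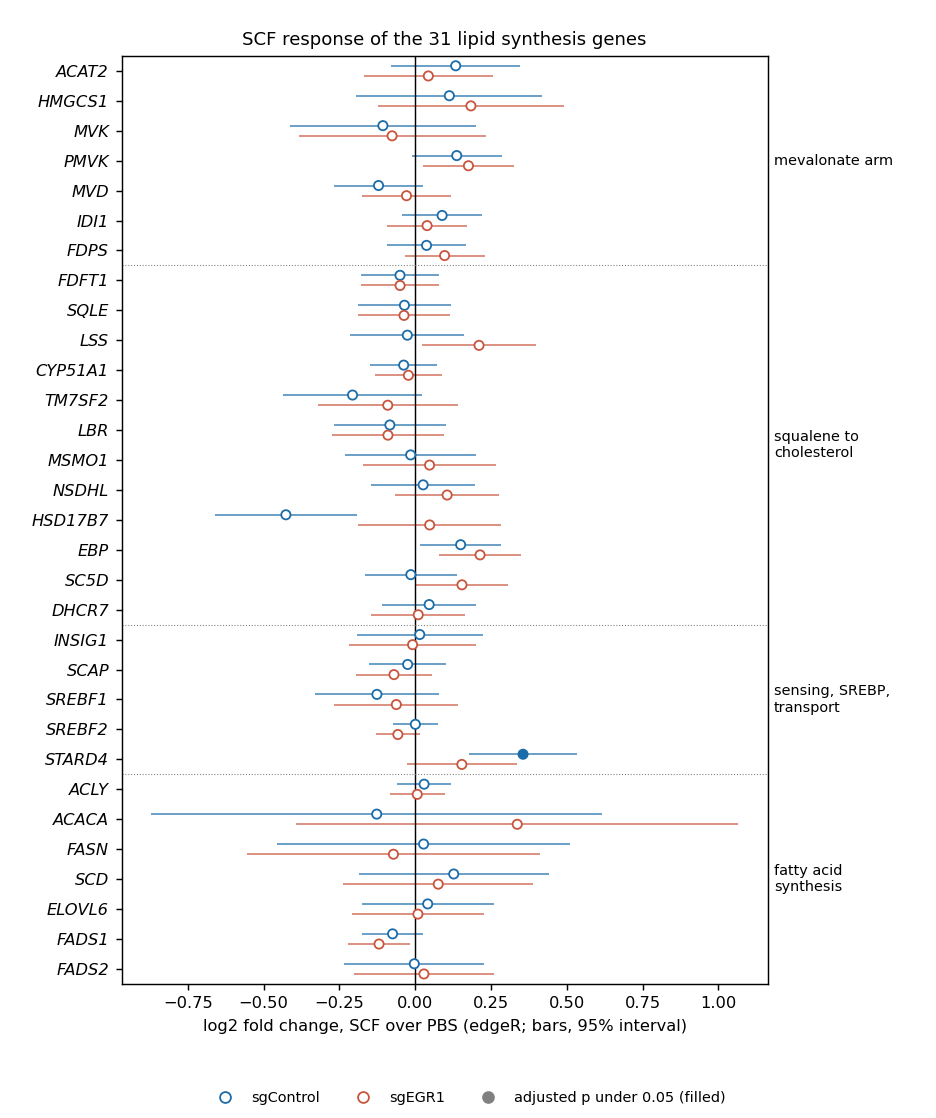
Log2 fold change of SCF over PBS for each of the 31 genes, in sgControl (blue) and sgEGR1 (red) cells, with 95% intervals from edgeR, ordered by role. A filled point marks an adjusted p under 0.05, which STARD4 in sgControl cells alone reached, and the intervals of ACACA and FASN were the widest.

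Groups that did not overlap were about as common here as elsewhere. In sgControl cells, all SCF libraries lay above or all below the PBS libraries in 6 of the 31 genes (19.4%), against 19.6% of all genes. ACAT2, PMVK and STARD4 were higher and MVD, TM7SF2 and HSD17B7 lower. In sgEGR1 cells this held for 5 (16.1%), against 21.2% of all genes. PMVK, LSS and EBP were higher there and SREBF2 and FADS1 lower, so that PMVK was shared by both.

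With the term for replicate 1, which narrows the error where replicate 1 differs, edgeR called more of the genes. The counts were 2 of 31 in sgControl cells (STARD4 and HSD17B7) against 8.32% of all genes, 3 of 31 in sgEGR1 cells (HMGCS1, EBP and FADS1) against 8.56%, and 5 of 31 in the average (STARD4, EBP, HMGCS1, PMVK and FADS1) against 18.5%. In the average 4 of the 5 were higher after SCF and FADS1 was lower. With the library labelled sgEGR1 SCF replicate 3 left out, this fit called 0 in sgEGR1 cells, against 4.92% of all genes, and 7 in the average, against 15.4%. The 7 then held TM7SF2 and SREBF1 too, both lower.

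STARD4 encodes a soluble carrier that moves cholesterol between the plasma membrane and the endoplasmic reticulum. Its level was 23.2, 26.7 and 24.2 CPM in sgControl PBS, 30.1, 31.4 and 33.2 in sgControl SCF, 22.4, 25.04 and 23.8 in sgEGR1 PBS and 23.9, 26.2 and 29.1 in sgEGR1 SCF. The 3 sgControl SCF libraries lay above all 9 others, while the sgEGR1 SCF and PBS libraries overlapped. In sgControl cells STARD4 rose 1.28-fold with SCF, which is 0.36 (SE 0.0823, adjusted p = 0.0420) on the log2 scale. The sgEGR1 value was 0.15 (SE 0.0828, adjusted p = 0.430), and it was 0.079 (adjusted p = 0.798) without the library labelled sgEGR1 SCF replicate 3. Over both guides STARD4 rose by 0.25 (SE 0.0584, adjusted p = 0.0170). The call in sgControl cells was lost on leaving out any of 9 of the 12 libraries in turn, which were the 6 sgControl libraries, sgEGR1 PBS replicates 2 and 3 and sgEGR1 SCF replicate 2, with adjusted p between 0.0286 and 0.141 over the 12. It was also lost with no filter on low counts (adjusted p = 0.0548). The average kept its call in all 12 leave-outs. STARD4 shares exon bases with STARD4-AS1 on the opposite strand. The paper's methods describe strand-specific libraries, but whether counting used strand is not given in the sources used here.

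EBP encodes the isomerase that shifts a double bond within the sterol ring. Its libraries were at 50.5, 49.5 and 46.5 CPM in sgControl PBS, 55.9, 56.1 and 50.5 in sgControl SCF, 49.4, 44.8 and 50.8 in sgEGR1 PBS and 57.4, 54.5 and 56.3 in sgEGR1 SCF. In sgEGR1 cells every SCF library lay above every PBS library, and in sgControl cells the lowest SCF library fell level with the highest PBS library. EBP rose by 0.18 (SE 0.0436, adjusted p = 0.0215) over both guides, which was 1.13-fold. Within the guides sgControl cells gave 0.15 (SE 0.0616, adjusted p = 0.280) and sgEGR1 cells 0.21 (SE 0.0616, adjusted p = 0.101). The average lost its call without sgControl PBS replicate 3 or sgControl SCF replicate 2, with adjusted p up to 0.0579. An unnamed gene on the same strand overlaps exons of EBP, so its count is uncertain.

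**Figure D2:**
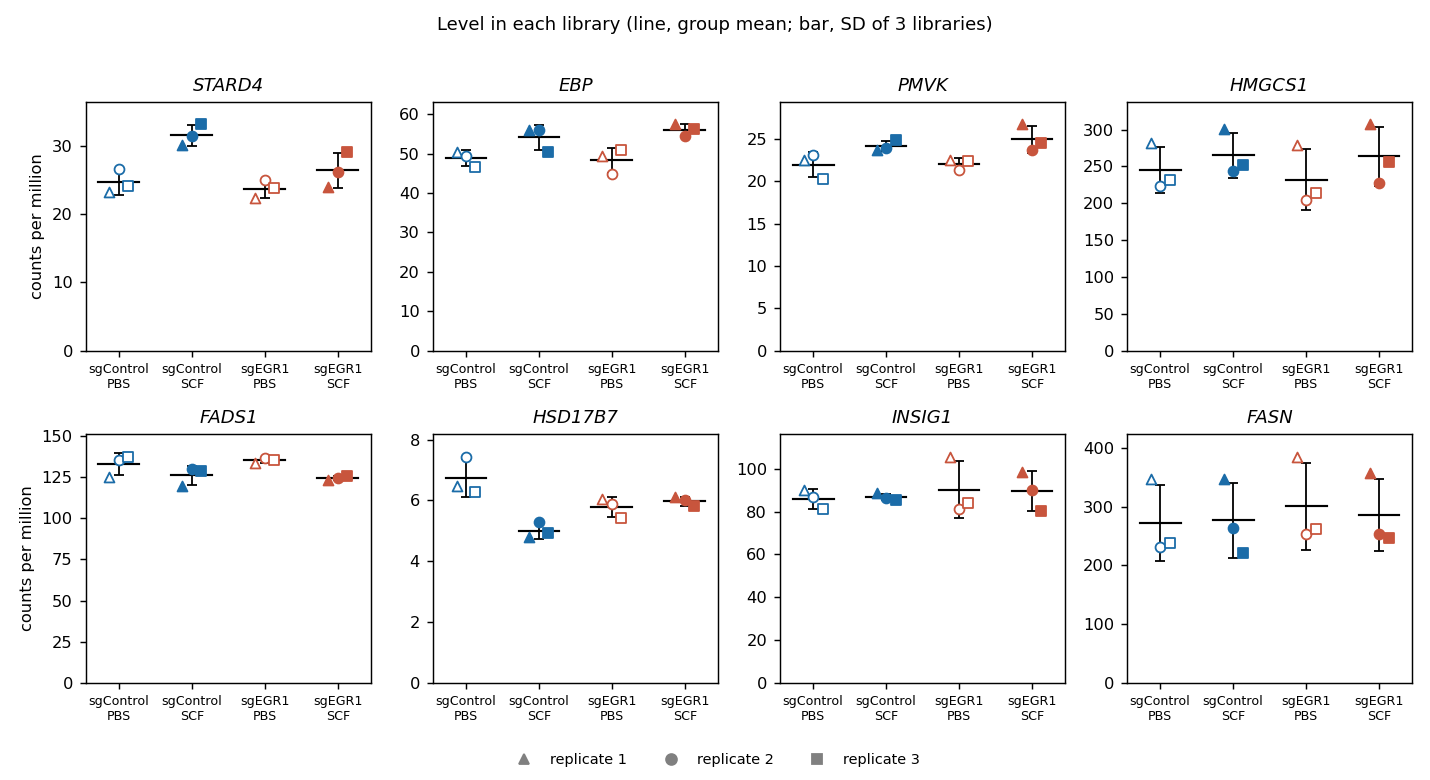
CPM of STARD4, EBP, PMVK, HMGCS1, FADS1, HSD17B7, INSIG1 and FASN in each of the 12 libraries, with the group mean (line) and SD (bar, n = 3), in sgControl (blue) and sgEGR1 (red) after PBS (open) or SCF (filled). STARD4 was highest in the 3 sgControl SCF libraries (30.1 to 33.2 CPM), and replicate 1 (triangles) was highest in every group for HMGCS1, INSIG1 and FASN.

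The mevalonate arm turns acetyl-CoA into farnesyl diphosphate. In the average SCF response 5 of its 7 genes lay above 0 and 2 below, with a median log2 fold change of 0.067, and 0 were called in either guide or in the average. With the term for replicate 1 HMGCS1 and PMVK were called in the average. HMGCS1, the cytosolic synthase that commits acetyl-CoA to this route, was at 281, 224 and 231 CPM in sgControl PBS, 300.4, 244 and 252 in sgControl SCF, 279, 204 and 213 in sgEGR1 PBS and 307, 228 and 256 in sgEGR1 SCF. Replicate 1 was the highest library of every group, and among replicates 2 and 3 the SCF libraries lay above the PBS libraries of the same guide. For SCF over PBS, sgControl cells gave 0.11 (SE 0.141, adjusted p = 0.821) and sgEGR1 cells 0.18 (SE 0.141, adjusted p = 0.618), and with the term for replicate 1 the average was 0.15 (SE 0.0318, adjusted p = 0.00503). HMGCS1 overlaps an unnamed gene on the opposite strand.

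PMVK, the kinase that adds the second phosphate to mevalonate, was at 22.5, 23.2 and 20.3 CPM in sgControl PBS, 23.7, 23.9 and 24.9 in sgControl SCF, 22.6, 21.3 and 22.4 in sgEGR1 PBS and 26.7, 23.7 and 24.5 in sgEGR1 SCF. Its SCF libraries lay above its PBS libraries in both guides. The average was 0.16 (SE 0.0483, adjusted p = 0.0673), and 0.0269 was the adjusted p with the term for replicate 1. MVK, the kinase before it, did not pass the test, with values of 14.5, 15.99 and 14.7 CPM in sgControl PBS, 12.6, 14.8 and 14.6 in sgControl SCF, 11.5, 14.7 and 17.1 in sgEGR1 PBS and 11.5, 14.7 and 14.9 in sgEGR1 SCF and an average of -0.092 (SE 0.0999, adjusted p = 0.661). All groups of MVK overlapped, and MVK shares exon bases with MMAB on the opposite strand.

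ACAT2, the thiolase that opens the route, was at 132, 132 and 123 CPM in sgControl PBS, 149.6, 133 and 142 in sgControl SCF, 157, 124 and 121 in sgEGR1 PBS and 154, 128 and 131 in sgEGR1 SCF. In sgControl cells its SCF libraries all lay above its PBS libraries, yet the difference of 0.13 (SE 0.0974, adjusted p = 0.626) did not pass the test. MVD, which decarboxylates the last mevalonate intermediate, was at 54.8 ± 2.48 CPM in sgControl PBS, 50.4 ± 2.15 in sgControl SCF, 50.8 ± 4.81 in sgEGR1 PBS and 49.8 ± 1.39 in sgEGR1 SCF (mean ± SD, n = 3), with an average of -0.075 (SE 0.0472, adjusted p = 0.394). The isomerase gene IDI1 stood at 44.1, 42.02 and 40.8 CPM in sgControl PBS, 45.6, 43.7 and 45.6 in sgControl SCF, 44.5, 41.6 and 39.9 in sgEGR1 PBS and 46.2, 41.9 and 41.3 in sgEGR1 SCF and averaged 0.064 (SE 0.0427, adjusted p = 0.433). FDPS, which makes farnesyl diphosphate, was at 192 ± 4.01 CPM in sgControl PBS, 197 ± 3.73 in sgControl SCF, 181 ± 17.04 in sgEGR1 PBS and 194 ± 9.04 in sgEGR1 SCF and averaged 0.067 (SE 0.0428, adjusted p = 0.403). None of these 4 passed the test in any comparison of SCF with PBS. ACAT2, FDPS and IDI1 each overlap another gene on the opposite strand, and FDPS and IDI1 have annotated pseudogenes with which reads may be shared.

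Of the 12 genes from squalene to cholesterol, EBP alone was called in the average SCF response. The signs were even, with 6 above and 6 below 0 and a median of -0.0073. SQLE, the monooxygenase that makes squalene epoxide and a slow step of the route, was at 139.7, 156 and 152 CPM in sgControl PBS, 133, 150.0 and 154 in sgControl SCF, 153, 166 and 166 in sgEGR1 PBS and 146, 169 and 158 in sgEGR1 SCF. Its groups overlapped under both guides, and the average SCF response was -0.036 (SE 0.0494, adjusted p = 0.739) with a 95% interval of -0.14 to 0.071. FDFT1, the squalene synthase one step earlier, was at 229, 249 and 257 CPM in sgControl PBS, 221, 241 and 247 in sgControl SCF, 245, 251 and 255 in sgEGR1 PBS and 233, 258 and 235 in sgEGR1 SCF and averaged -0.050 (SE 0.0413, adjusted p = 0.540).

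LSS, which folds the epoxide into lanosterol, was at 12.4, 12.2 and 10.8 CPM in sgControl PBS, 11.4, 11.6 and 11.6 in sgControl SCF, 13.1, 10.9 and 11.97 in sgEGR1 PBS and 13.5, 14.1 and 13.9 in sgEGR1 SCF. The 3 sgEGR1 SCF libraries were the 3 highest of the 12, while the sgControl groups overlapped. The SCF response in sgEGR1 cells was 0.21 (SE 0.0857, adjusted p = 0.264), that in sgControl cells -0.026 (SE 0.0860, adjusted p = 0.951), and neither passed the test. LSS overlaps unnamed genes on the opposite strand.

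HSD17B7, the reductase of sterol keto groups, was at 6.47, 7.44 and 6.28 CPM in sgControl PBS, 4.78, 5.30 and 4.93 in sgControl SCF, 6.05, 5.89 and 5.41 in sgEGR1 PBS and 6.11, 5.999 and 5.81 in sgEGR1 SCF. In sgControl cells all SCF libraries lay below all PBS libraries, and in sgEGR1 cells the groups overlapped. The sgControl response of -0.43 (SE 0.108, adjusted p = 0.0580) missed the threshold, and the sgEGR1 response was 0.047 (SE 0.108, adjusted p = 0.911). With the term for replicate 1 the sgControl value was called (adjusted p = 0.0262), as it was by DESeq2 (adjusted p = 0.0412). HSD17B7 held 142 to 189 counts in a library and has annotated pseudogenes.

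TM7SF2 and LBR encode sterol reductases that act on the same double bond, and LBR is also the lamin B receptor of the inner nuclear membrane. TM7SF2 was at 34.5, 32.3 and 28.7 CPM in sgControl PBS, 28.3, 26.6 and 27.8 in sgControl SCF, 36.7, 28.8 and 28.8 in sgEGR1 PBS and 32.2, 26.4 and 29.9 in sgEGR1 SCF. Its SCF libraries lay below its PBS libraries in sgControl cells, and the average was -0.15 (SE 0.0746, adjusted p = 0.269). LBR was at 235, 292 and 281 CPM in sgControl PBS, 226, 265 and 271 in sgControl SCF, 251, 286 and 272 in sgEGR1 PBS and 250.4, 254 and 256 in sgEGR1 SCF, and its average of -0.087 (SE 0.0602, adjusted p = 0.451) did not pass the test. TM7SF2 overlaps VPS51 on the same strand.

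None of the remaining sterol enzymes passed the test for SCF against PBS. CYP51A1, the lanosterol demethylase, was at 101 ± 3.52 CPM in sgControl PBS, 97.9 ± 4.50 in sgControl SCF, 98.2 ± 2.37 in sgEGR1 PBS and 96.6 ± 4.93 in sgEGR1 SCF (mean ± SD, n = 3) and averaged -0.030 (SE 0.0359, adjusted p = 0.691). MSMO1, which oxidises sterol methyl groups, was at 19.9 ± 3.28 CPM in sgControl PBS, 19.7 ± 0.770 in sgControl SCF, 18.2 ± 0.795 in sgEGR1 PBS and 18.9 ± 0.577 in sgEGR1 SCF and averaged 0.016 (SE 0.0705, adjusted p = 0.937). NSDHL, the decarboxylating enzyme that follows it, was at 31.1, 33.1 and 33.8 CPM in sgControl PBS, 30.4, 35.00 and 34.4 in sgControl SCF, 30.5, 28.95 and 32.1 in sgEGR1 PBS and 29.5, 34.7 and 34.3 in sgEGR1 SCF and averaged 0.065 (SE 0.0554, adjusted p = 0.555). The desaturase gene SC5D was at 25.01 ± 1.36 CPM in sgControl PBS, 24.8 ± 0.781 in sgControl SCF, 23.2 ± 1.32 in sgEGR1 PBS and 25.8 ± 1.67 in sgEGR1 SCF, with a response of 0.15 (SE 0.0696, adjusted p = 0.323) under sgEGR1 and -0.015 (SE 0.0694, adjusted p = 0.970) under sgControl. DHCR7, the reductase of a last step to cholesterol, was at 40.1 ± 0.746 CPM in sgControl PBS, 41.4 ± 1.59 in sgControl SCF, 38.4 ± 0.894 in sgEGR1 PBS and 38.6 ± 4.21 in sgEGR1 SCF and averaged 0.028 (SE 0.0504, adjusted p = 0.815). CYP51A1 overlaps other genes on both strands.

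Among the genes that sense, regulate or carry sterols, STARD4 was called in the average and the other 4 were not. INSIG1, a direct SREBP target that retains SCAP when sterols are high, was at 89.96, 86.9 and 81.02 CPM in sgControl PBS, 88.5, 86.5 and 85.5 in sgControl SCF, 106, 81.3 and 83.8 in sgEGR1 PBS and 98.7, 89.9 and 80.4 in sgEGR1 SCF. Its groups overlapped, and the average of 0.0029 (SE 0.0676, adjusted p = 0.991) had a 95% interval of -0.14 to 0.15. SREBF2, the factor that favours the sterol genes, held the tightest values of the set, at 343, 343 and 340.5 CPM in sgControl PBS, 339.6, 348 and 339.9 in sgControl SCF, 352, 357 and 359 in sgEGR1 PBS and 338, 349.8 and 339 in sgEGR1 SCF. In sgEGR1 cells its SCF libraries lay just below its PBS libraries, by -0.058 (SE 0.0337, adjusted p = 0.476) on the log2 scale, while the sgControl value was 0.00029 (SE 0.0337, adjusted p = 1.000). The 95% interval of the average was -0.081 to 0.023.

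SREBF1, the factor that favours the fatty acid genes, was at 279, 337 and 318 CPM in sgControl PBS, 261, 316 and 278 in sgControl SCF, 264, 288 and 291 in sgEGR1 PBS and 239, 270.4 and 297 in sgEGR1 SCF. The groups overlapped under both guides, and the average was -0.095 (SE 0.0664, adjusted p = 0.457). SCAP, the escort of the SREBPs to the Golgi, was at 93.9 ± 1.28 CPM in sgControl PBS, 92.3 ± 5.58 in sgControl SCF, 100 ± 5.34 in sgEGR1 PBS and 95.2 ± 5.35 in sgEGR1 SCF (mean ± SD, n = 3) and averaged -0.048 (SE 0.0409, adjusted p = 0.562). SREBF1 shares exon bases with RAI1, and SREBF2 with SREBF2-AS1, both on the opposite strand.

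Of the 7 fatty acid genes, 0 were called in either guide or in the average, and FADS1 was called with the term for replicate 1. FADS1 and FADS2 encode desaturases of polyunsaturated fatty acids. FADS1 was at 125, 136 and 138 CPM in sgControl PBS, 119.5, 129.8 and 129 in sgControl SCF, 134, 137 and 136 in sgEGR1 PBS and 123, 125 and 126 in sgEGR1 SCF. In sgEGR1 cells every SCF library lay below every PBS library. The sgEGR1 difference was -0.12 (SE 0.0465, adjusted p = 0.239) and the sgControl difference -0.075 (SE 0.0465, adjusted p = 0.536) on the log2 scale, and the average with the term for replicate 1 was -0.10 (SE 0.0235, adjusted p = 0.0115). FADS2 was at 322, 390.3 and 386 CPM in sgControl PBS, 314, 394 and 388 in sgControl SCF, 319, 349 and 364 in sgEGR1 PBS and 308, 363 and 382 in sgEGR1 SCF and averaged 0.013 (SE 0.0750, adjusted p = 0.955). FADS1 and FADS2 overlap each other on opposite strands, and FADS2 also shares exon bases with FEN1 on the same strand. The counts of both genes are therefore uncertain.

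FASN, the synthase that builds palmitate, was at 346, 231 and 238 CPM in sgControl PBS, 347, 263 and 221 in sgControl SCF, 385, 253 and 263 in sgEGR1 PBS and 357, 254 and 246 in sgEGR1 SCF. Replicate 1 was at least 346 CPM in every group and no other library exceeded 263 CPM, so the average of -0.022 (SE 0.156, adjusted p = 0.962) carried a 95% interval of -0.36 to 0.32. With the term for replicate 1 that average was -0.018 (SE 0.0361, adjusted p = 0.788). SCD, the stearoyl-CoA desaturase, was at 218, 177 and 186 CPM in sgControl PBS, 224, 212 and 199 in sgControl SCF, 252, 168 and 182 in sgEGR1 PBS and 244, 181 and 209 in sgEGR1 SCF and averaged 0.10 (SE 0.102, adjusted p = 0.631). Its groups overlapped under both guides.

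ELOVL6, which lengthens palmitate, was at 229.6, 276 and 276 CPM in sgControl PBS, 232, 281 and 290.2 in sgControl SCF, 239.8, 282 and 282 in sgEGR1 PBS and 249, 285 and 276 in sgEGR1 SCF and averaged 0.025 (SE 0.0706, adjusted p = 0.894). ACLY, which makes cytosolic acetyl-CoA from citrate, was at 242 ± 8.38 CPM in sgControl PBS, 247 ± 6.15 in sgControl SCF, 245 ± 2.85 in sgEGR1 PBS and 246 ± 8.55 in sgEGR1 SCF (mean ± SD, n = 3) and averaged 0.018 (SE 0.0293, adjusted p = 0.793), with a 95% interval of -0.046 to 0.082. ACACA, the acetyl-CoA carboxylase that makes malonyl-CoA, held only 12 to 33 counts in a library (0.447 to 1.15 CPM), and its average of 0.10 had a 95% interval of -0.42 to 0.63. Changes of ACACA of any size within that interval were compatible with these few counts. ELOVL6 and ACLY each overlap an unnamed gene on the opposite strand.

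Per kilobase of merged exon, the mean level over the 12 libraries ran from 51.4 CPM/kb for FDPS and 51.4 for ACAT2, which did not differ beyond their spread, down to 1.23 for HSD17B7 and 0.0620 for ACACA. SREBF2, at 42.9 CPM/kb, ranked above SREBF1, at 34.8. These lengths merge all annotated isoforms and understate genes that use a short one. In all, 17 of the 31 genes share exon bases with another gene in GENCODE, 15 on the opposite strand and 5 on the same strand.

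Between guides edgeR called 0 of 31 after PBS, 0 after SCF and 0 in the average over both treatments, and in each of these 0% of all genes were called, so the count says nothing particular to the 31. EGR1, the targeted gene, was not called either, at -2.59 (SE 0.801, adjusted p = 0.999) after PBS and -1.03 (SE 0.450, adjusted p = 1.000) after SCF on the log2 scale. An unadjusted p under 0.05 was reached by 0 of the 31 after PBS, against 4.62% of all genes, by 3 after SCF (LSS, HSD17B7 and STARD4), against 2.33%, and by 3 in the average (SQLE, LSS and STARD4), against 5.20%. DESeq2 called 0 of the 31 in all of them, and 20, 5 and 28 of all genes. The median log2 fold change of the 31 genes, sgEGR1 over sgControl, was -0.011 after PBS and -0.0035 after SCF. With replicates 2 and 3 only the PBS median was -0.057, with 8 genes above and 23 below 0, and 0 of the 31 were called.

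**Figure D3:**
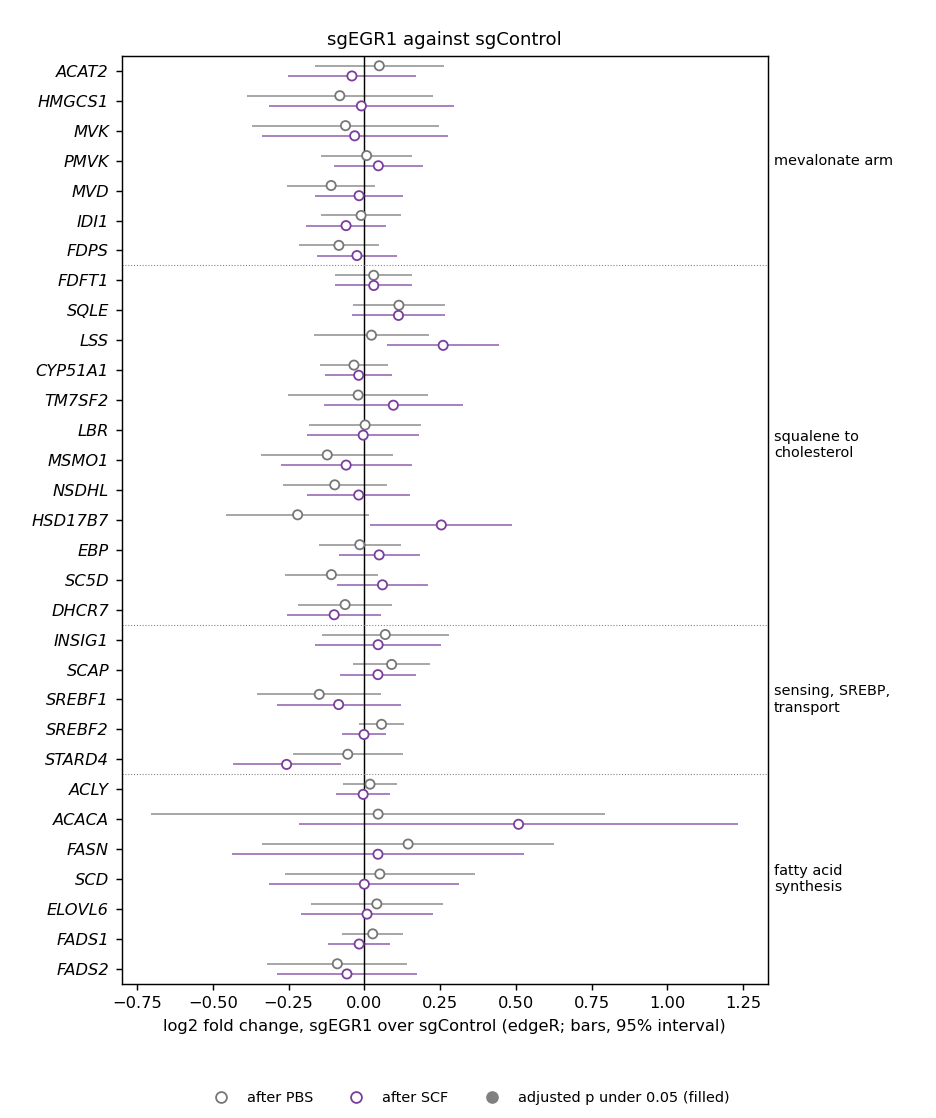
Log2 fold change of sgEGR1 over sgControl for each of the 31 genes after PBS (grey) and after SCF (purple), with 95% intervals from edgeR, ordered by role. No point is filled, because no gene passed an adjusted p under 0.05, and STARD4 after SCF lay at -0.26.

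STARD4 after SCF was lower in all 3 sgEGR1 libraries than in any sgControl library, at -0.26 (SE 0.0817, adjusted p = 1.000) on the log2 scale. The library labelled sgEGR1 SCF replicate 3 had the highest STARD4 level of its group, and the fit that left it out gave -0.34 (adjusted p = 0.746). After PBS it was -0.054 (SE 0.0833, adjusted p = 0.999). LSS after SCF was higher in all 3 sgEGR1 libraries, at 0.26 (SE 0.0853, adjusted p = 1.000), and stood at 0.024 (SE 0.0864, adjusted p = 0.999) after PBS. SQLE was 0.11 (SE 0.0700, adjusted p = 0.999) after PBS and 0.11 (SE 0.0698, adjusted p = 1.000) after SCF.

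Same-numbered libraries of the 2 guides deviated together, replicate 1 most, so differences within these pairs could be read. In 5 of the 31 genes (16.1%) sgEGR1 minus sgControl had the same sign in 6 of 6 pairs, against 6.49% of all genes. SQLE was higher in all 6, and NSDHL, DHCR7, STARD4 and FADS2 were lower in all 6. None of the 5 passed the test in the average guide effect, where STARD4 was at -0.16 (SE 0.0583, adjusted p = 0.870) and SQLE at 0.11 (SE 0.0494, adjusted p = 0.950). With the term for replicate 1 and with the library labelled sgEGR1 SCF replicate 3 left out, SQLE (0.12, adjusted p = 0.0329) and STARD4 (-0.19, adjusted p = 0.0485) were called, against 1.47% of all genes.

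The interaction, that is the SCF response in sgEGR1 minus that in sgControl cells, was called for 0 of the 31 genes and 0% of all genes. HSD17B7 had the one unadjusted p under 0.05 among the 31, against 1.98% of all genes, with an interaction of 0.47 (SE 0.152, edgeR unadjusted p = 0.00903, adjusted p = 1.000). For STARD4 the interaction was -0.20 (SE 0.117, adjusted p = 1.000) with a 95% interval of -0.46 to 0.052, so a response of STARD4 of the same size under both guides lay inside the interval. DESeq2 called 0 of the 31 as well.

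More of these genes were called by replicate number than by treatment or guide, also within the fit that has the term for replicate 1. In that fit, with 1 coefficient per group, replicate 1 differed from replicates 2 and 3 in 17 of the 31 genes (54.8%). Of these 7 were higher and 10 lower, against 26.6% of all genes called. The same fit called 5 of the 31 in the average SCF response, against 18.5% of all genes. In the average guide effect it called 0, against 0.374%. In 7 of the 31 the 4 replicate 1 libraries lay wholly apart from the other 8 (22.6%), against 11.8% of all genes. This split was made because earlier results of these data showed replicate 1 apart. Its p-values therefore describe the libraries and do not test a question set beforehand. The labels give no day or batch for the numbers, and what sets replicate 1 apart was not tested.

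**Figure D4:**
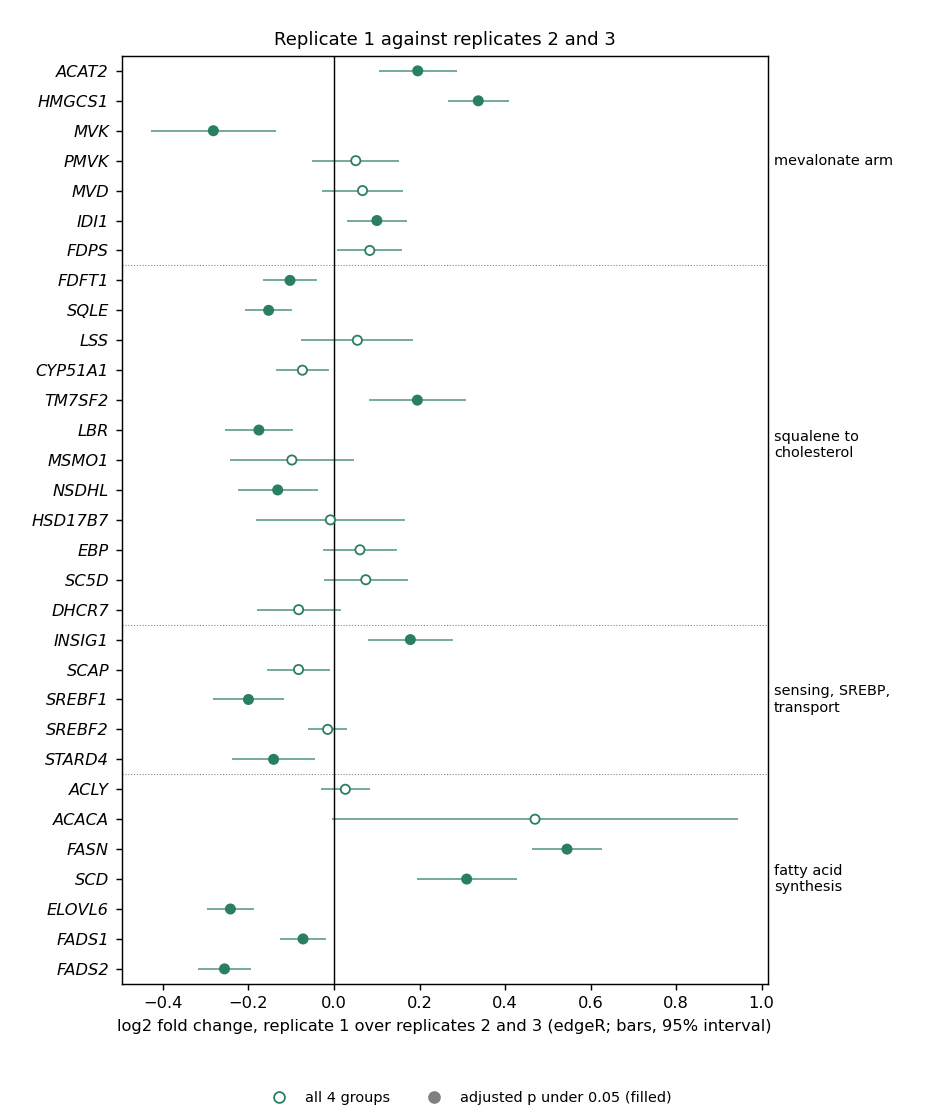
Log2 fold change of the 4 replicate 1 libraries over the 8 libraries of replicates 2 and 3 for each of the 31 genes, with 95% intervals from edgeR, ordered by role. The 17 filled points mark an adjusted p under 0.05, and they range from -0.28 (MVK) to 0.54 (FASN).

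FASN led the genes that were higher. Its replicate 1 libraries held 346, 347, 385 and 357 CPM in sgControl PBS, sgControl SCF, sgEGR1 PBS and sgEGR1 SCF, and the other 8 held 221 to 263 CPM, a difference of 0.54 (SE 0.0375, adjusted p = 5.77e-07) on the log2 scale. HMGCS1 followed with 281, 300.4, 279 and 307 CPM against 204 to 256 CPM and 0.34 (SE 0.0333, adjusted p = 1.14e-05), and SCD with 218, 224, 252 and 244 CPM against 168 to 212 CPM and 0.31 (SE 0.0543, adjusted p = 0.00101). None of these 3 overlapped. ACAT2 at 0.20 (SE 0.0421, adjusted p = 0.00410), TM7SF2 at 0.19 (SE 0.0521, adjusted p = 0.0145), INSIG1 at 0.18 (SE 0.0462, adjusted p = 0.0121) and IDI1 at 0.10 (SE 0.0323, adjusted p = 0.0356) were also higher, with overlap.

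Other genes of the same pathways were lower in replicate 1. ELOVL6 was at 229.6, 232, 239.8 and 249 CPM against 276 to 290.2 CPM, a log2 difference of -0.24 (SE 0.0251, adjusted p = 1.72e-05). FADS2 gave 322, 314, 319 and 308 CPM against 349 to 394 CPM, or -0.26 (SE 0.0282, adjusted p = 2.91e-05). MVK at -0.28 (SE 0.0674, adjusted p = 0.00781) and LBR at -0.18 (SE 0.0364, adjusted p = 0.00321) did not overlap either. SREBF1 at -0.20 (SE 0.0380, adjusted p = 0.00179), SQLE at -0.15 (SE 0.0258, adjusted p = 0.000782), STARD4 at -0.14 (SE 0.0453, adjusted p = 0.0349), NSDHL at -0.13 (SE 0.0433, adjusted p = 0.0393), FDFT1 at -0.10 (SE 0.0292, adjusted p = 0.0194) and FADS1 at -0.072 (SE 0.0250, adjusted p = 0.0481) were lower with overlap. Both directions occurred in each of the 4 role groups, and SREBF2 was at -0.015 (SE 0.0212, adjusted p = 0.664).

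A further 30 genes of sterol and fatty acid metabolism were listed beside the 31, and 28 of them passed the filter, since ABCG1 and SCD5 were at a count of 0. In sgControl and in sgEGR1 cells SCF raised 1 of the 28 and lowered 0, against 2.89% and 2.59% of all genes called, and in the average it raised 3 and lowered 1, against 9.03%. MID1IP1, which binds acetyl-CoA carboxylase and promotes its activity, was at 36.9, 39.3 and 38.5 CPM in sgControl PBS, 46.5, 57.03 and 52.6 in sgControl SCF, 37.1, 41.7 and 41.03 in sgEGR1 PBS and 46.5, 60.5 and 56.1 in sgEGR1 SCF. Its SCF libraries lay above its PBS libraries under both guides, with log2 fold changes of 0.45 (SE 0.0968, adjusted p = 0.0312) and 0.44 (SE 0.0967, adjusted p = 0.0317), and it rose 1.36-fold in the average (adjusted p = 0.00170).

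ACACB, the carboxylase at the mitochondrial surface, moved against it, at 33.6, 36.1 and 34.8 CPM in sgControl PBS, 25.3, 27.03 and 27.9 in sgControl SCF, 28.4, 38.6 and 36.9 in sgEGR1 PBS and 21.4, 26.7 and 28.01 in sgEGR1 SCF. Its SCF libraries lay below its PBS libraries under both guides, and the average fell by 0.42 (SE 0.0822, adjusted p = 0.00754) on the log2 scale. RDH11, a retinal reductase, rose by 0.19 (SE 0.0442, adjusted p = 0.0187) in the average, and NR1H2, the oxysterol receptor LXR beta, rose by 0.11 (SE 0.0307, adjusted p = 0.0481). With the term for replicate 1 the average held 4 that rose and 1 that fell, against 18.5% of all genes called, the fourth being MYLIP, a ubiquitin ligase induced by LXR, at 0.27 (adjusted p = 0.0381). No listed gene was called between guides or in the interaction. The median log2 fold change of the 28 in the average was 0.0029.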

How the data were processed

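RNA-seq of 12 HUDEP-2 libraries was analysed (2 guides by 2 treatments, 3 replicates each, called biological replicates in the study's methods). Per the labels and methods, reads were aligned to hg38 with HISAT2, and the authors deposited estimated counts per gene from StringTie, not scaled for depth or length. All values were whole, so rounding changed none. The paper's methods describe the libraries as strand-specific. The annotation release, the handling of multi-mapping reads and the use of strand in counting are not given in the sources used here. Column codes for the scrambled and second guide and for no SCF were matched to sgControl, sgEGR1 and PBS, and 0 columns were left over.

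Genes were kept by filterByExpr (15492 of 54628, at least 99.9% of each library's counts) and tested in edgeR 4.0.16 (R 4.3.3) with TMM factors, 1 coefficient per group over all 12 libraries and the quasi-likelihood F test. P-values were adjusted by Benjamini-Hochberg over all 15492 genes and called under 0.05, with no minimum fold. SEs were taken as the log2 fold change over the square root of F, and intervals are at 95%. These intervals cover the spread between libraries, while floors (3 counts) cover counting error only. DESeq2 1.42.0, RLE factors, no filter, a replicate block, a term for replicate 1, replicates 2 and 3 only and leaving out each library were the alternatives. The code was tested on simulated data.

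Whether replicate numbers pair libraries was checked from the correlation of their deviations from the group means. Between guides replicates 1 to 3 gave 0.232, 0.103 and 0.119 in PBS libraries and 0.269, 0.102 and 0.126 in SCF libraries. All were above 0.1, so the numbers were taken to pair these libraries. Between treatments they gave 0.272, 0.0077 and 0.108 in sgControl cells and 0.230, 0.0749 and 0.0620 in sgEGR1 cells. Replicate 1 thus deviated together there too, but not every number passed 0.1, so pairing was not assumed. A shift of replicate 1 shared by groups also moves replicates 2 and 3 together against the group mean. Their values therefore do not by themselves show pairing. Library pairs within a group differed by more than sampling noise (chi-square per gene at least 4.37). The members, the gene lists and the split by replicate 1 were chosen with earlier results of these data known. One cell type marker on the list is not reported here. Values are given per library for members called in any comparison and for INSIG1, SREBF1, SREBF2, HMGCS1, SQLE, LSS, SCD and FASN. They are also given for further genes whose libraries did not overlap or that make a contrast, chosen after their values were seen. RDH11, NR1H2 and MYLIP, from the other listed genes, are given by fold change only. Promoter windows came from RefSeq (GRCh38.p14) and gene positions and exon overlaps from GENCODE on hg38.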

Additional observations from a re-analysis of the deposited data

Results flagged for a closer look

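In 2 of the 31 genes every SCF library moved one way from the PBS mean under one guide and the opposite way under the other. LSS was higher after SCF in all 3 sgEGR1 libraries and lower in all 3 sgControl libraries, with a difference between the responses of 0.237 on the log2 scale (SE 0.121, edgeR adjusted p = 1.000). HSD17B7 was lower after SCF in all 3 sgControl libraries and higher in all 3 sgEGR1 libraries, with a difference of 0.474 (SE 0.152, edgeR adjusted p = 1.000). The test of the difference passed for neither. How many of all genes show this pattern was not counted, so its frequency says nothing particular to the 31. Some margins were small. The lowest sgEGR1 SCF library of HSD17B7 was at 5.81 CPM against a PBS mean of 5.78. For LSS the highest sgControl SCF library was at 11.6 CPM against a PBS mean of 11.8. HSD17B7 rests on 142 to 189 counts in a library, and LSS on 278 to 446.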

How the results depend on the processing

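Over 4123 values of single genes under the alternatives, 4083 stayed on the same side of the threshold, 12 were no longer called, 28 were newly called and 0 called values reversed, while 315 uncalled values changed sign. The number of the 31 genes called for SCF in sgControl cells (1) was 2 with DESeq2, 2 with the replicate block, 2 with the term for replicate 1, 2 with that term and the library labelled sgEGR1 SCF replicate 3 left out, 0 with no filter on low counts and 0 to 1 on leaving out single libraries. In sgEGR1 cells (0) it was 1 with DESeq2, 2 with the replicate block and 3 with the term for replicate 1. In the average SCF response (2) it was 3 with DESeq2, which added FADS1, 5 with the replicate block, 5 with the term for replicate 1, 5 with replicates 2 and 3 only, 7 with the term and without that library, and 1 to 3 on leaving out single libraries. In the average guide effect (0) it was 2 with the term and without that library. The share of all genes called also differed between these fits. In sgControl cells it was 2.89% in the main fit, 7.64% with the replicate block and 8.32% with the term. For sgEGR1 cells these shares were 2.59%, 7.97% and 8.56%. For the average SCF response they were 9.03%, 18.1% and 18.5%, with 11.3% for replicates 2 and 3 only. DESeq2 called 4.90%, 4.99% and 11.6% of the 15492 genes in these comparisons. The causes were not tested.

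The median log2 fold change of the 31 genes in sgEGR1 cells after SCF over PBS (0.0098) ranged from -0.00036 to 0.052 on leaving out single libraries, the highest without sgEGR1 PBS replicate 1. Between guides after PBS (-0.011) it ranged from -0.057 to 0.00037 and was -0.057 with replicates 2 and 3 only, where the average guide median (0.0055) was -0.032. In comparisons of SCF with PBS the numbers were not taken to pair the libraries, although replicate 1 deviated together there too. In each, 3 of 6 libraries correlated best with their own number. Between guides the replicate block changed no call among the 31 genes.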
